A study of Mus musculus with 12 samples.

Results

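The transcripts of the PDGF, FGF and HGF mitogen system were followed in mouse fibroblasts with and without hypoxia. The members were the 10 genes of a fixed list of growth factors and receptors, found by gene name in the deposited table of 54446 genes: the ligands Pdgfa, Pdgfb, Pdgfc, Pdgfd, Fgf2, Fgf7 and Hgf, and the receptors Pdgfra, Pdgfrb and Fgfr1. RNA was sequenced from NIH3T3 cells, an immortalised mouse embryonic fibroblast line, as wild type (WT), and from ΔN-VEGF cells, an NIH3T3 derivative. In ΔN-VEGF cells both alleles of the N-VEGF coding sequence, the amino-terminal extension translated from the long Vegfa mRNA, had been deleted with CRISPR/Cas9 and donor cassettes that were later removed with VCre recombinase. Such cells were picked as single clones, and the clone that was sequenced is not given in the sources used here, so the deletion and the properties of a clone cannot be told apart. Each line was grown in serum-containing medium, either in air with CO2 (normoxia) or for 16 h below 0.2% oxygen (hypoxia), and each of the 4 groups held 3 samples. The labels call these triplicates and do not say that they were separate cultures, so the p-values measure the spread between these samples.

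PDGF ligands are secreted as dimers that pair and activate the receptor tyrosine kinases PDGFRα and PDGFRβ. PDGF-A and PDGF-C bind mainly PDGFRα, whereas PDGF-B binds both receptors and PDGF-D mainly PDGFRβ. FGF ligands act on FGF receptors together with heparan sulfate on the cell surface: FGF2 is a broad mitogen of mesenchymal cells that activates FGFR1 among other receptors, and FGF7 (keratinocyte growth factor) is made by fibroblasts and acts on epithelial cells through a splice form of FGFR2. HGF is another fibroblast product, secreted as an inactive precursor and bound by the receptor MET. PDGF was first known as a serum mitogen for fibroblasts, and these receptors pass their signal through adaptor proteins to the RAS-ERK kinases.

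The stretches shown first are the promoter positions of members that hold a core of the hypoxia response element, the short motif bound by hypoxia-inducible factors, since hypoxia is the treatment compared. RefSeq promoter windows of build GRCm38.p6, reaching from 250 bases before to 50 bases after a gene's start, were at hand for 7 of the 10 members and gave 9 windows. Both strands were searched for the core ACGTG, called the A form here, and for the core GCGTG, called the G form. The A form was in none of the 9 windows, and the G form was in windows of Fgf2, Fgf7, Hgf and Pdgfa. Each line gives 29 bases in the direction of the gene, 5′ to 3′, with the G form in capitals, shown as its reverse complement where it lies on the opposite strand.
Fgf2, chr3:37348569-37348597, plus strand: tggaggcgccggGCGTGgggaggaggcgg
Fgf7, chr2:126034458-126034486, plus strand: tctgtttccacaGCGTGaatgcccacttg
Fgf7, chr2:126034643-126034671, plus strand: aataaaaggctcCACGCactcacacaagc
Hgf, chr5:16553245-16553273, plus strand: ccCACGCttttcttacctgccctctttct
Pdgfa, chr5:138995159-138995187, minus strand: gggagctgcagcCACGCtccgcggtcccc
The Fgf7 window held the G form 3 times in all, and the windows of Hgf and Pdgfa held it in 1 of their 2 windows each. The windows of Pdgfc, Pdgfd and Pdgfra held neither core. Of all 32851 RefSeq windows of this length, 32.4% held the G form, 19.6% the A form and 43.8% either, so a match is common and is given here only as a description. Genes with and without a match are found below among those that fell in hypoxia.

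The samples held 30519052 to 43056690 counts on genes, and 14724 genes passed the filter on low counts and were tested. All 11 genes of a list of hypoxia-inducible genes (Vegfa, Slc2a1, Car9 and others) rose in hypoxia in both lines. Vegfa itself checks the deletion in no way, since only a stretch of its coding sequence was removed while the counts cover the gene. The fibroblast markers Col1a1, Vim and Thy1 were present in every sample, with Col1a1 from 454 to 3088 CPM (counts scaled to library size). Other markers of that list were not: Fap and Lum were at or near 0, and Postn was at most 1.56 CPM. The epithelial marker Epcam was at 0 in every sample, and the leukocyte marker Ptprc reached at most 0.0685 CPM. Replicate 2 of WT normoxia stood apart: its log2 CPM correlated at 0.956 and 0.957 with replicates 1 and 3, which correlated with each other at 0.996. Replicate 2 of ΔN-VEGF normoxia correlated at 0.986 with its group, and every pair within the hypoxia groups correlated at 0.994 or more. The summed level of the 11 hypoxia-inducible genes was 2668 CPM in replicate 2 of WT normoxia, against 1511 and 1466 CPM in replicates 1 and 3 and 12647 to 13420.4 CPM in WT hypoxia. Gene by gene, 5 of the 11 were above both other replicates in this sample and 5 were below both, among them Vegfa (39.4 CPM against 86.2 and 82.6 CPM) and Car9 (0.186 CPM against 0.959 and 0.983 CPM). The fits were also run without this sample, and values from them are given beside counts of calls and for some of the genes named.

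In both lines hypoxia lowered the transcripts of Pdgfc, Pdgfrb, Fgf7 and Hgf, and in WT cells also that of Pdgfra. Hgf showed the largest fold in each line, to 8.23-fold lower in WT and 4.48-fold lower in ΔN-VEGF cells. Fgfr1 rose in ΔN-VEGF cells, and after hypoxia its level was 1.97-fold higher there than in WT cells. Of the 10 members, 8 passed the filter, and Pdgfb and Pdgfd had no counts in any of the 12 samples. With edgeR's quasi-likelihood test and Benjamini-Hochberg adjustment over all genes tested, 0 of the 8 rose and 5 fell in WT hypoxia, where 36.5% of all genes tested were called, 18.2% higher and 18.3% lower. In ΔN-VEGF cells 1 of the 8 rose and 4 fell, against 53.3% of all genes called, 26.9% higher and 26.4% lower, so the total there is close to the background. With a fold of at least 2 as well, 3 members were called in WT cells (15.7% of all genes) and 3 in ΔN-VEGF cells (27.2%). Omitting replicate 2 of WT normoxia gave 7 members in WT (54.0% of all genes) and 6 in the ΔN-VEGF line (67.1%). With replicate 2 of both normoxia groups omitted the numbers were 8 (65.3%) and 7 (71.4%). The median log2 fold change of the 8 was -0.76 in WT and -0.89 in ΔN-VEGF cells, beside -0.07 and -0.01 over all genes tested. The normoxia and hypoxia samples did not overlap for 5 members in WT cells (45.0% of all genes) and for 6 in ΔN-VEGF cells (70.5%). CPM values below are scaled by TMM factors, and the bulk RNA does not tell fewer expressing cells from less RNA per cell.

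**Figure D1:**
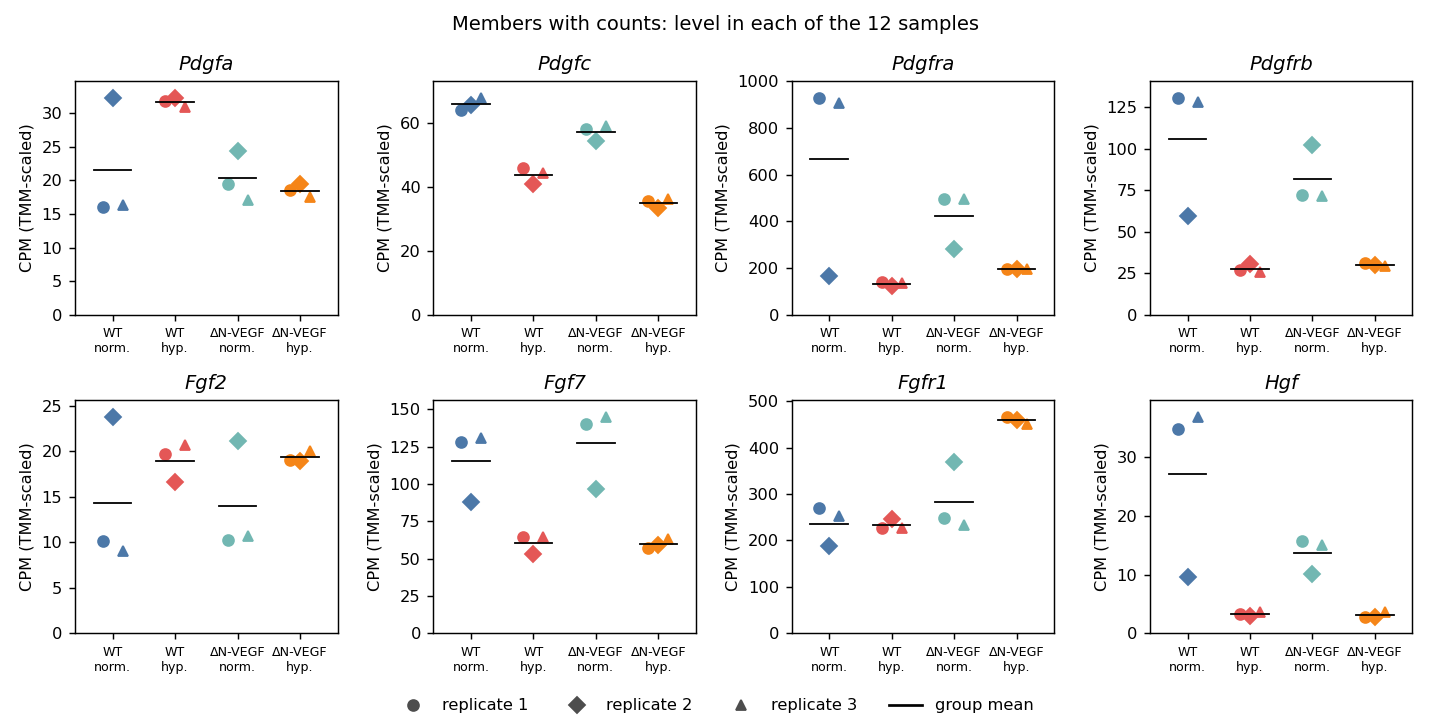
Level of each of the 8 members with counts in every sample, in TMM-scaled CPM on axes that start at 0, with replicate numbers as marker shapes and the group mean as a line. Hypoxia samples lie close together in each group, while replicate 2 of normoxia (diamond) lies apart for most genes and is at 168 CPM for Pdgfra against 927 and 908 CPM in the other WT normoxia samples.

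Among the PDGF ligands, Pdgfa, which encodes the A chain, lies on chromosome 5 (138976014 to 138997370, minus strand, GRCm38). Its level was 16, 32.2 and 16.3 CPM in WT normoxia (replicates 1, 2 and 3) and 31.8, 32.2 and 30.9 CPM in WT hypoxia. In ΔN-VEGF cells it was 19.4, 24.4 and 17.1 CPM in normoxia and 18.5, 19.4 and 17.5 CPM in hypoxia. Replicate 2 of WT normoxia thus lay at the level of the hypoxia samples, while replicates 1 and 3 were far below them. The fitted log2 difference was 0.56 in WT cells (SE 0.24, adjusted p 0.09, edgeR) and -0.14 in ΔN-VEGF cells (SE 0.24, adjusted p 0.66, edgeR), neither of them called. Scaling by total counts alone gave -0.53 in ΔN-VEGF cells with an adjusted p of 0.03 (edgeR), a call, where it also moved the median of all genes from -0.01 to -0.41. Without replicate 2 of WT normoxia the WT difference was 0.97 with an adjusted p of 2.7e-05 in edgeR. In hypoxia the 3 ΔN-VEGF samples were all below the 3 WT samples, a 1.71-fold lower level (log2 difference -0.78, SE 0.24, adjusted p 0.043, edgeR). This call is close to its threshold: it was made under 13 of 21 alternatives, with adjusted p values of up to 0.13 when a hypoxia sample was left out. The antisense gene 6330403L08Rik shares 813 exon bases with Pdgfa and had at most 419 counts in a sample. It is not stated whether reads were counted by strand, so reads from the shared bases are uncertain for both genes. In ΔN-VEGF cells 6330403L08Rik fell by 0.55 on the log2 scale in hypoxia (adjusted p 0.0077, edgeR).

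Pdgfc, whose product must be cut by proteases before it binds a receptor, lies on chromosome 3 (81036416 to 81214040, plus strand). WT normoxia gave 64.1, 65.4 and 67.6 CPM and WT hypoxia 45.7, 41.0 and 44.4 CPM. ΔN-VEGF cells gave 58.0, 54.4 and 58.9 CPM in normoxia and 35.4, 33.5 and 36.3 CPM in hypoxia. The normoxia and hypoxia samples of Pdgfc were apart in each line. It fell by 0.59 on the log2 scale in WT cells (SE 0.08, adjusted p 2.0e-04, edgeR) and by 0.70 in ΔN-VEGF cells (SE 0.08, adjusted p 3.2e-05, edgeR), and both falls were called under every one of 21 alternatives. Between the lines the ΔN-VEGF samples lay below the WT samples in both conditions. The log2 difference was -0.32 in hypoxia (SE 0.08, adjusted p 0.019, edgeR) and -0.20 in normoxia (SE 0.08, adjusted p 0.19, edgeR), of which the first was called, though under 15 of 21 alternatives.

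The other PDGF ligands, Pdgfb on chromosome 15 (79995874 to 80014977, minus strand) and Pdgfd on chromosome 9 (6168584 to 6378850, plus strand), were not detected. A count of 0 in these samples allows up to 3 counts per sample, or 0.0578 to 0.103 CPM, and this limit covers counting error alone.

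The ratio of Pdgfa to Pdgfc counts within a sample, chosen after the values were seen and therefore given without a test, was 0.250, 0.492 and 0.241 in WT normoxia and 0.696, 0.785 and 0.695 in WT hypoxia. In ΔN-VEGF cells it was 0.334, 0.447 and 0.290 in normoxia and 0.521, 0.578 and 0.484 in hypoxia. Hypoxia samples were above normoxia samples in each line, and the ΔN-VEGF hypoxia samples were below the WT ones. A ratio within a sample does not depend on the scaling of the library.

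Pdgfra, the receptor for PDGF-A and PDGF-C, lies on chromosome 5 (75152292 to 75198215, plus strand). Its level was 927, 168 and 908 CPM in WT normoxia and 141, 125 and 135 CPM in WT hypoxia. In ΔN-VEGF cells it was 496, 282 and 495 CPM in normoxia and 195, 197 and 197 CPM in hypoxia. Replicate 2 was 5.47-fold below the mean of replicates 1 and 3 in WT normoxia and 1.75-fold below it in ΔN-VEGF normoxia, yet each normoxia sample was above each hypoxia sample of its line. Pdgfra fell by 2.32 on the log2 scale in WT cells (SE 0.49, adjusted p 0.0036, edgeR), a 4.99-fold lower level, called under 20 of 21 alternatives. In ΔN-VEGF cells the log2 difference was -1.11 (95% interval -2.15 to -0.07, adjusted p 0.068, edgeR), which was not called, while 7 of 21 alternatives called it, among them DESeq2 with an adjusted p of 0.043 and scaling by total counts alone (-1.52, adjusted p 0.024, edgeR). Without replicate 2 of WT normoxia the adjusted p in ΔN-VEGF cells was 3.8e-05 at a log2 difference of -1.12 (edgeR). In hypoxia the ΔN-VEGF samples were all above the WT samples, with a log2 difference of 0.55 that was not called over 12 samples (SE 0.47, adjusted p 0.46, edgeR). With only the 6 hypoxia samples in the fit the same 0.55 was called (adjusted p 3.7e-07, edgeR). That fit takes its filter, scaling and spread from these 6 samples alone, and which of these changed the call was not tested.

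Pdgfrb, the receptor that binds PDGF-B and PDGF-D, was measured at 130.4, 59.4 and 128 CPM in WT normoxia and at 27.0, 30.5 and 25.8 CPM in WT hypoxia. In ΔN-VEGF cells it was at 71.9, 102 and 71.3 CPM in normoxia and at 31.1, 29.9 and 29.2 CPM in hypoxia. Replicate 2 was the lowest WT normoxia sample and the highest ΔN-VEGF normoxia sample, and neither line showed an overlap between normoxia and hypoxia. Pdgfrb fell by 1.94 on the log2 scale in WT cells (SE 0.26, adjusted p 1.9e-04, edgeR) and by 1.44 in ΔN-VEGF cells (SE 0.26, adjusted p 7.5e-04, edgeR), each under all 21 alternatives. Omitting replicate 2 of WT normoxia put the WT difference at -2.22 (adjusted p 3.3e-08, edgeR). The cells thus carried a transcript for the receptor of PDGF-B and PDGF-D while the transcripts of both ligands were below detection.

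The log2 ratio of Pdgfra to Pdgfrb counts was 2.83, 1.50 and 2.82 in WT normoxia and 2.38, 2.04 and 2.39 in WT hypoxia. It was 2.79, 1.46 and 2.80 in ΔN-VEGF normoxia and 2.65, 2.72 and 2.76 in ΔN-VEGF hypoxia. In normoxia replicates 1 and 3 of the lines were close to each other and replicate 2 was low in both. An exact two-sided permutation test over 3 against 3 samples cannot go below 0.10, and it gave the exact p of 0.10 for the difference of 0.44 between the lines in hypoxia (0.40 after adjustment over the 4 comparisons). For the other 3 comparisons the exact permutation p was 0.50 or 1. This test does not use the replicate numbers, whose pairing of the normoxia samples was assumed and not shown for replicates 1 and 3. By number the ΔN-VEGF ratio was the lower one in all 3 normoxia pairs, with a mean difference of -0.03 that was not tested within pairs.

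**Figure D2:**
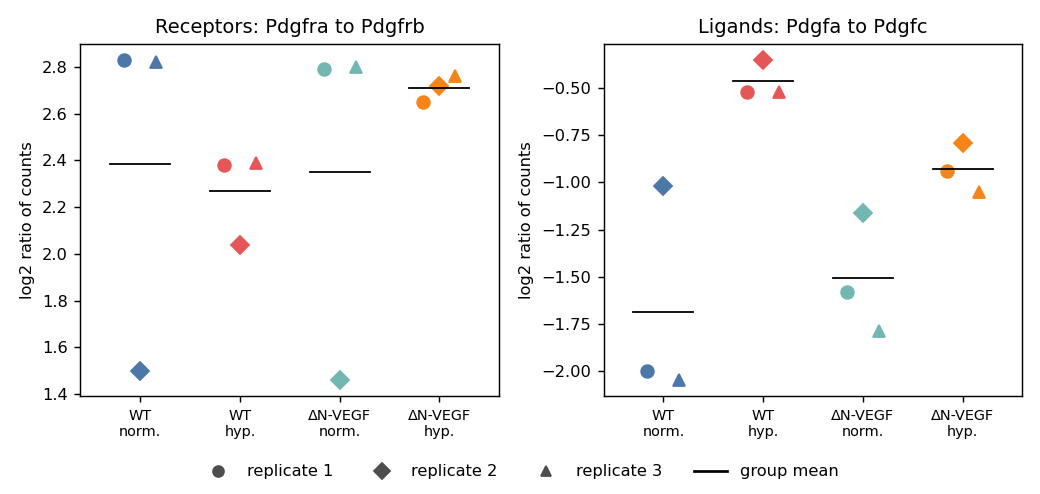
Log2 ratio of raw counts within each sample for the PDGF receptors (Pdgfra to Pdgfrb, left) and for the detected PDGF ligands (Pdgfa to Pdgfc, right), with replicate numbers as marker shapes and group means as lines; the vertical axes do not start at 0. The receptor ratio of normoxia replicate 2 is 1.50 in WT and 1.46 in ΔN-VEGF cells, against 2.79 to 2.83 in the other normoxia samples.

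Among the FGF ligands, Fgf2 lies on chromosome 3 (37348346 to 37410108, plus strand). It was measured at 10.2, 23.8 and 9.07 CPM in WT normoxia and 19.7, 16.6 and 20.7 CPM in WT hypoxia. ΔN-VEGF cells gave 10.3, 21.1 and 10.7 CPM in normoxia and 19.1, 18.9 and 20 CPM in hypoxia. In each line replicate 2 of normoxia was above all hypoxia samples and replicates 1 and 3 were below them. Fgf2 was called in none of the 5 comparisons. The log2 differences between hypoxia and normoxia were 0.41 in WT (95% interval -0.38 to 1.19, adjusted p 0.4, edgeR) and 0.47 in ΔN-VEGF cells (95% interval -0.32 to 1.25, adjusted p 0.3, edgeR). Without replicate 2 of WT normoxia the WT value was 0.99 (adjusted p 0.0046, edgeR), and without replicate 2 of both normoxia groups the ΔN-VEGF value was 0.88 (adjusted p 4.1e-08, edgeR). The antisense gene Nudt6 shares 640 exon bases with Fgf2 and had at most 159 counts in a sample, so its reads and those of Fgf2 are uncertain where the genes overlap. Nudt6 fell by 1.13 on the log2 scale in ΔN-VEGF hypoxia (adjusted p 0.0018, edgeR) and had a log2 difference of -0.31 in WT (adjusted p 0.27, edgeR).

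Fgf7 lies on chromosome 2 (126034658 to 126091185, plus strand). WT normoxia gave 128, 88.1 and 131 CPM and WT hypoxia 64.3, 52.9 and 64.2 CPM. ΔN-VEGF normoxia gave 140.1, 96.7 and 145 CPM and ΔN-VEGF hypoxia 57.4, 59.3 and 63.0 CPM. All hypoxia samples were below all normoxia samples, including the lower replicate 2 of each line. Fgf7 fell by 0.93 on the log2 scale in WT (SE 0.18, adjusted p 0.0021, edgeR) and by 1.09 in ΔN-VEGF cells (SE 0.18, adjusted p 4.7e-04, edgeR), each under all 21 alternatives. Omitting replicate 2 of WT normoxia put the WT difference at -1.09 (adjusted p 3.0e-05, edgeR). The difference between these responses was -0.15 (95% interval -0.71 to 0.41, adjusted p 0.77, edgeR).

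Fgfr1, a receptor for FGF2 in mesenchymal cells, lies on chromosome 8 (25513654 to 25575718, plus strand). Its level was 269, 187 and 252 CPM in WT normoxia and 226, 246 and 227 CPM in WT hypoxia. In ΔN-VEGF cells it was 248, 369.7 and 233 CPM in normoxia and 466, 459 and 450.5 CPM in hypoxia. The ΔN-VEGF hypoxia samples were above all 9 other samples, while the WT groups overlapped. Fgfr1 rose by 0.69 on the log2 scale in ΔN-VEGF cells (SE 0.18, adjusted p 0.0065, edgeR), and its log2 difference was -0.02 in WT cells (95% interval -0.40 to 0.37, adjusted p 0.94, edgeR). Scaling by total counts alone gave 0.30 in ΔN-VEGF cells with an adjusted p of 0.2 (edgeR), with the shift of the median of all genes given above for Pdgfa. The level in hypoxia was higher in ΔN-VEGF than in WT cells by 0.98 (SE 0.18, adjusted p 0.0037, edgeR), and all 21 alternatives called this difference, with values between 0.76 and 1.02. The test of the difference between the responses gave 0.71 (95% interval 0.17 to 1.26, adjusted p 0.13, edgeR), which was not called.

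Hgf lies on chromosome 5 (16553495 to 16620152, plus strand). It was measured at 34.9, 9.66 and 36.9 CPM in WT normoxia and at 3.22, 3.01 and 3.64 CPM in WT hypoxia. ΔN-VEGF cells gave 15.8, 10.1 and 15.1 CPM in normoxia and 2.85, 2.73 and 3.56 CPM in hypoxia. The hypoxia samples of both lines covered the same narrow range, and even the lowest normoxia sample was well above it. Hgf fell by 3.04 on the log2 scale in WT (SE 0.42, adjusted p 2.3e-04, edgeR) and by 2.16 in ΔN-VEGF cells (SE 0.42, adjusted p 0.0012, edgeR), each under all 21 alternatives. Omitting replicate 2 of WT normoxia put the WT difference of Hgf at -3.43 (adjusted p 6.4e-09, edgeR). In hypoxia 85 to 143 counts stood behind each value. Its receptor gene Met, no member of the list and chosen after its values were seen, was at 118, 209.6 and 119 CPM in WT normoxia and 148, 128 and 143 CPM in WT hypoxia, with a log2 difference of -0.09 (adjusted p 0.74, edgeR) that turned to 0.24 (adjusted p 0.082, edgeR) with the high replicate 2 of normoxia omitted, neither of them called. In ΔN-VEGF cells Met had a mean of 160.5 CPM in normoxia and 129.6 CPM in hypoxia (log2 difference -0.31, adjusted p 0.22, edgeR), and the value was called (-0.32, adjusted p 0.011, edgeR) once replicate 2 of WT normoxia was omitted.

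**Figure D3:**
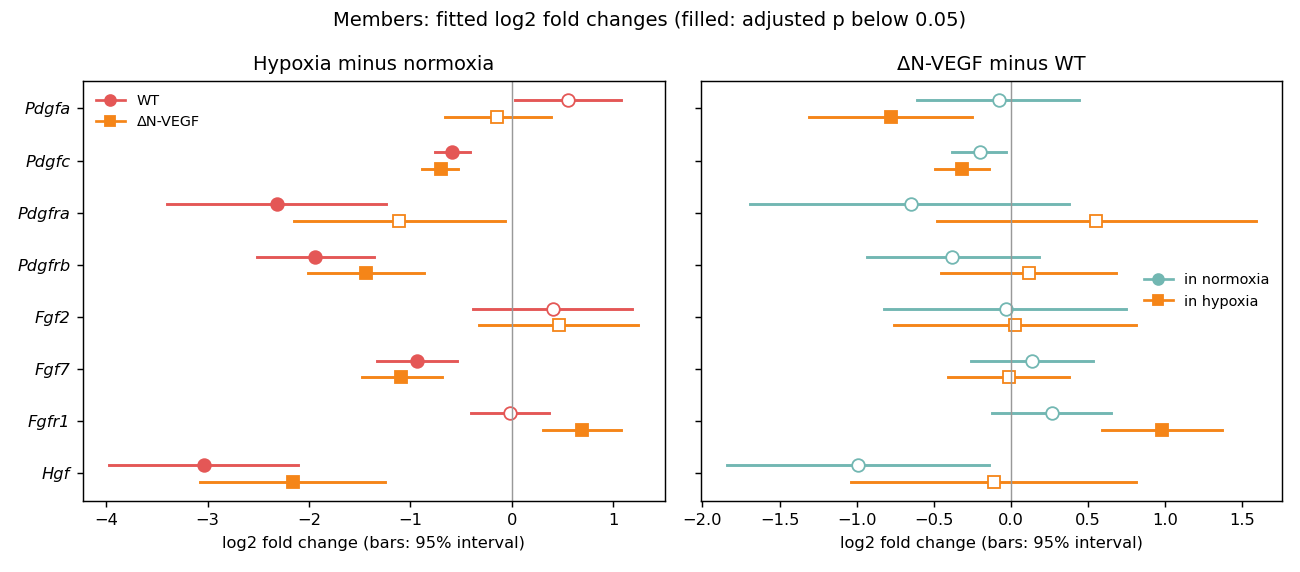
Fitted log2 fold changes of the 8 tested members with 95% intervals: hypoxia minus normoxia in each line (left) and ΔN-VEGF minus WT in each condition (right), with filled symbols for an adjusted p below 0.05. On the left Hgf, Pdgfra and Pdgfrb lie farthest below 0 in WT cells, at -3.04, -2.32 and -1.94; on the right Fgfr1 in hypoxia lies farthest above 0, at 0.98.

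The second question was how the lines differed in the same condition. In hypoxia 1 of the 8 tested members was higher in ΔN-VEGF cells (Fgfr1) and 2 were lower (Pdgfa and Pdgfc), where 20.1% of all genes tested were called, 10.8% higher and 9.36% lower. None of the 3 reached a fold of 2, as 6.81% of all genes did. A fit that left out replicate 2 of WT normoxia added Pdgfra and gave 4 members (42.4% of all genes), and one without replicate 2 of both normoxia groups also gave 4 (55.8%). The samples of the lines did not overlap for 4 members, against 59.8% of all genes. In normoxia 0 of the 8 were called in edgeR, against 4.36% of all genes, while 2 had an unadjusted p below 0.05 (Pdgfc and Hgf) and DESeq2 called 0. The lines did not overlap in normoxia for 1 member, Pdgfc (16.3% of all genes). Hgf had a mean of 13.7 CPM in ΔN-VEGF and 27.1 CPM in WT normoxia, a log2 difference of -0.99 (95% interval -1.84 to -0.14, adjusted p 0.19, edgeR), with replicate 2 of WT below all ΔN-VEGF samples. Once replicate 2 of WT normoxia was left out, 5 members were called in normoxia, where 48.9% of all genes were then called, and 4 without replicate 2 of both groups (53.6%). Without the WT sample, the log2 differences from edgeR were -1.38 for Hgf (adjusted p 3.3e-05), -1.10 for Pdgfra (2.7e-04), -0.65 for Pdgfrb (0.0016), -0.19 for Pdgfc (0.047) and 0.34 for Pdgfa (0.036). The sign for Pdgfa was opposite to that over all samples (-0.08).

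The third question was whether the lines responded differently to hypoxia, tested as the difference of the log2 fold changes. Over all 12 samples 0 of the 8 members were called in edgeR, against 3.36% of all genes, while 1 had an unadjusted p below 0.05 (Fgfr1) and DESeq2 called 0. The largest estimates were 1.21 for Pdgfra (95% interval -0.25 to 2.67) and 0.88 for Hgf (95% interval -0.38 to 2.13), intervals that include both no difference and a difference of several fold. With replicate 2 of WT normoxia left out, 5 members were called, where 44.4% of all genes were, and 5 with replicate 2 of both normoxia groups left out (52.8%). In the first of these fits the differences were 1.65 for Pdgfra (adjusted p 1.4e-04), 1.26 for Hgf (0.0013), 0.84 for Fgfr1 (0.0047), 0.77 for Pdgfrb (0.0047) and -1.12 for Pdgfa (1.8e-04, all from edgeR). Positive values mean a smaller fall or a larger rise in ΔN-VEGF cells. WT normoxia enters this test, the WT response and the comparison of the lines in normoxia, so these 3 sets of values share samples and are given side by side only. Leaving out that sample also leaves WT normoxia with 2 samples, and the spread of the tests is then estimated without it.

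**Figure D4:**
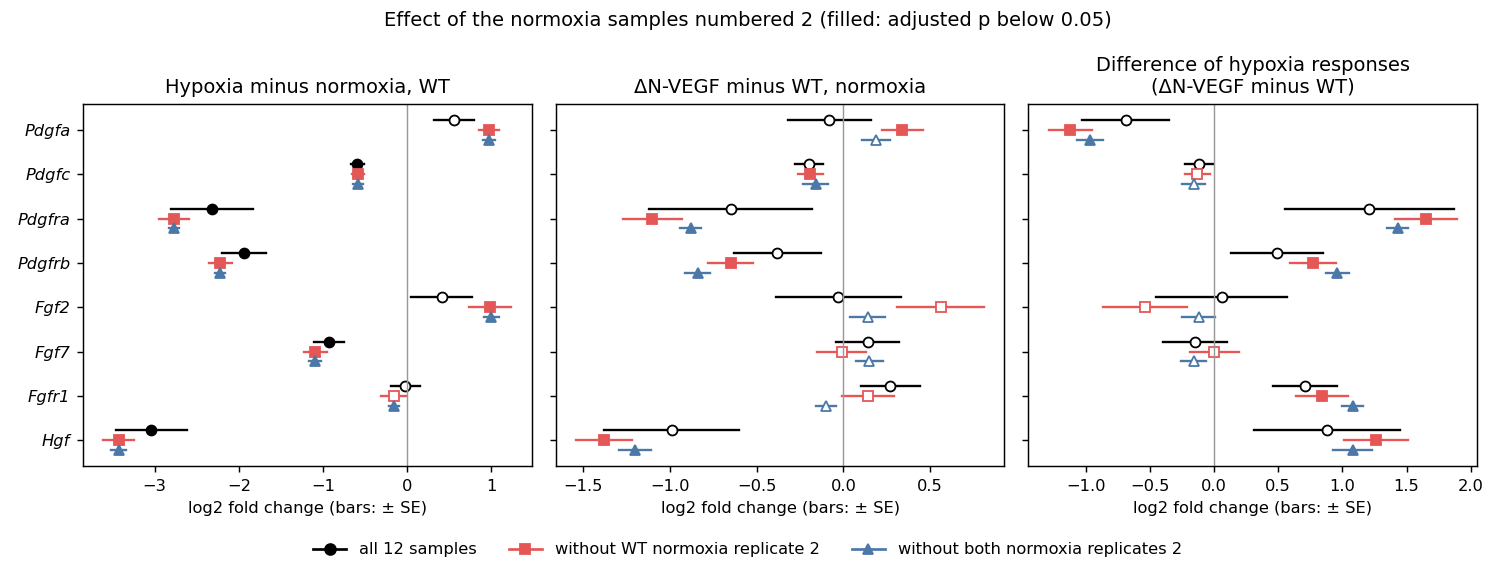
Log2 fold change ± SE of the 8 tested members with all 12 samples, without replicate 2 of WT normoxia, and without replicate 2 of both normoxia groups, for the WT hypoxia response (left), the lines in normoxia (middle) and the difference of the responses (right); filled symbols have an adjusted p below 0.05. For Pdgfra the difference of the responses is 1.21, 1.65 and 1.43 in these 3 fits, and it is called in the latter 2.

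Levels can be compared between genes only per length, as RPKM, which divides CPM by the kilobases of annotated exon. In WT normoxia Pdgfra had the highest mean at 66.6 RPKM, followed by Fgf7 at 35.6, Fgfr1 at 23.9, Pdgfrb at 19.4 and Pdgfc at 12.9 RPKM. With replicate 2 in the group, each of these 5 overlapped its neighbours among them in range. Pdgfa, Hgf and Fgf2 followed at 6.89, 3.78 and 2.12 RPKM, of which the last 2 overlapped. In WT hypoxia Fgfr1 led at 23.6 RPKM, ahead of Fgf7 at 18.6 and Pdgfra at 13.4 RPKM, and no neighbours in the order overlapped. Pdgfa was then the ligand above Pdgfc, at 10.1 against 8.59 RPKM. In ΔN-VEGF normoxia Pdgfra at 42.3, Fgf7 at 39.1 and Fgfr1 at 28.7 RPKM led with overlapping ranges. In ΔN-VEGF hypoxia Fgfr1 led at 46.4 RPKM, with Pdgfra at 19.6 and Fgf7 at 18.5 RPKM behind it, and Pdgfc at 6.89 RPKM stayed above Pdgfa at 5.92 RPKM. Hgf was the lowest detected member in both hypoxia groups, at 0.458 RPKM in WT and 0.424 RPKM in ΔN-VEGF cells.

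The remaining ligands and receptors of the families gave 10 tested genes of 22 listed. In WT hypoxia 1 rose and 1 fell, and in ΔN-VEGF hypoxia 3 rose and 3 fell, with medians of 0.08 and 0.62 on the log2 scale. These and the following lists are to be read against the 36.5% and 53.3% of all genes called in WT and ΔN-VEGF hypoxia, or 54.0% and 67.1% when replicate 2 of WT normoxia is omitted. In that second fit 11 of the ligands and receptors were tested, of which 2 rose and 2 fell in WT and 6 rose and 4 fell in ΔN-VEGF hypoxia, with medians of -0.05 and 1.12. Fgf11, an FGF homologous factor that stays in the cell, rose by 1.94 in WT (adjusted p 0.013) and by 3.53 in the ΔN-VEGF line (adjusted p 2.6e-04, edgeR), reaching 3.10 and 7.40 CPM. Fgf21, a metabolic hormone of the FGF family, was higher by 4.14 in hypoxic ΔN-VEGF cells (adjusted p 4.3e-04, edgeR), from 0.388, 0.0711 and 0.245 CPM to 4.20, 3.92 and 4.54 CPM. It had a log2 difference of 0.15 in WT cells (adjusted p 0.87), and the responses differed by 3.98 (adjusted p 0.043, edgeR). The Fgf21 samples in normoxia held as few as 3 counts. Fgf10, which like FGF7 acts through FGFR2, fell by 1.10 in the ΔN-VEGF line (adjusted p 0.0018) and had a log2 difference of -0.50 in WT cells (adjusted p 0.1, edgeR), which became -0.66 (adjusted p 0.01, edgeR) in the fit omitting that sample. Fgfrl1, an FGF receptor without a kinase domain, fell by 0.59 in WT and by 0.46 in the ΔN-VEGF line (adjusted p 0.0035 and 0.0095, edgeR).

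Of the proteases and carriers of PDGF and FGF, 7 of 10 listed genes were tested. In WT hypoxia 3 rose and 3 fell, and in ΔN-VEGF hypoxia 2 rose and 3 fell. In the fit omitting replicate 2 of WT normoxia 3 rose and 4 fell in each line. Fgfbp3, a secreted carrier that releases FGFs from the matrix, fell by 2.64 on the log2 scale in WT cells and fell by 3.65 in the ΔN-VEGF line (adjusted p 5.3e-05 and 4.1e-06, edgeR). Furin, a proprotein convertase that processes PDGF chains, fell by 0.73 and 0.58 (adjusted p 4.6e-04 and 0.0012, edgeR), and was chosen after its values were seen. Sparc, a matrix protein that binds PDGF, rose by 0.77 and 0.87 (adjusted p 9.6e-05 and 2.2e-05, edgeR). A2m, the protease inhibitor alpha-2-macroglobulin that also binds growth factors, had 0 to 3 counts in every normoxia sample and reached 9.99 to 10.7 CPM in WT and 91.1 to 97.2 CPM in ΔN-VEGF hypoxia. Plau, the urokinase protease counted among the activators of HGF and PDGF, rose by 0.76 in WT cells (adjusted p 0.043) and had a log2 difference of -0.59 in ΔN-VEGF cells (adjusted p 0.082, or 0.019 in the fit omitting that sample, edgeR). Of the list of HGF activators and their inhibitors 3 of 9 genes were tested, of which 2 rose in WT and 1 in ΔN-VEGF cells and 0 fell. With that sample omitted 5 were tested, and 2 rose and 1 fell in each line.

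Heparan sulfate proteoglycans serve FGFs as co-receptors. The list held genes of these and of the enzymes that build their chains, and 18 of 26 listed genes were tested. In WT hypoxia 3 rose and 8 fell (median -0.33), and in ΔN-VEGF hypoxia 4 rose and 5 fell (median -0.08). With replicate 2 of WT normoxia omitted 17 were tested, of which 4 rose and 10 fell in WT and 5 rose and 6 fell in ΔN-VEGF cells. The syndecans moved in both directions. Sdc4 rose by 1.72 in WT and 1.77 in ΔN-VEGF cells (adjusted p 4.0e-08 and 1.9e-08, edgeR), and Sdc1 fell by 1.65 and 2.65 (adjusted p 1.4e-05 and 2.9e-07, edgeR). The difference between the responses of Sdc1 was called, with the larger fall in ΔN-VEGF cells. Sdc3 rose by 1.66 and 3.70 (adjusted p 0.002 and 6.9e-06), and its responses differed by 2.04 (adjusted p 0.035, edgeR). Glce, the epimerase that acts on heparan sulfate chains, rose by 0.72 and 2.08 (adjusted p 0.0015 and 4.7e-07), and its responses differed by 1.36 (adjusted p 0.0063, edgeR).

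Of the adaptors and RAS-ERK kinases all 29 listed genes were tested. In WT hypoxia 4 rose, 2 fell and 23 were not called, and in ΔN-VEGF hypoxia 7 rose, 5 fell and 17 were not called. With replicate 2 of WT normoxia omitted 9 rose and 7 fell in WT and 9 rose and 8 fell in ΔN-VEGF cells. In the fit omitting replicate 2 of both normoxia groups 13 rose and 9 fell in WT (65.3% of all genes called) and 10 rose and 8 fell in ΔN-VEGF cells (71.4%). Map2k1, the ERK kinase MEK1, rose by 1.84 in WT and 2.36 in ΔN-VEGF cells (adjusted p 9.4e-06 and 9.0e-07, edgeR), to 203 and 306 CPM. Shc1, an adaptor of receptor tyrosine kinases, rose by 0.92 and 1.42 (adjusted p 1.7e-05 and 4.0e-07, edgeR). In hypoxia Frs2, the docking protein of FGF receptors, was lower in ΔN-VEGF than in WT cells (log2 difference -0.82, adjusted p 0.012, edgeR).

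Of the feedback inhibitors 21 of 22 listed genes were tested, of which 6 rose and 5 fell in WT and 9 rose and 6 fell in ΔN-VEGF hypoxia. With replicate 2 of WT normoxia omitted 9 rose and 6 fell in WT and 10 rose and 6 fell in ΔN-VEGF cells. Spry4, a Sprouty inhibitor of receptor signalling, fell by 1.54 in WT and 2.39 in ΔN-VEGF cells (adjusted p 6.6e-05 and 1.8e-06, edgeR). Dusp4, a MAP kinase phosphatase, rose by 1.23 and 1.90 (adjusted p 0.035 and 0.0028, edgeR). It was at 4.15, 12.3 and 3.78 CPM in WT normoxia and 14.6, 17.0 and 15.8 CPM in WT hypoxia, and the WT difference was 2 (adjusted p 1.2e-05, edgeR) with the high replicate 2 omitted. Dusp6, the phosphatase that acts on ERK, fell by 1.27 in the ΔN-VEGF line (adjusted p 9.2e-05) and had a log2 difference of -0.25 in WT (adjusted p 0.27), and the responses differed by -1.02 (adjusted p 0.041, edgeR). Cblb, a ubiquitin ligase of receptors, rose by 0.86 and 1.67 (adjusted p 2.6e-04 and 1.3e-06), and its responses differed by 0.81 (adjusted p 0.032, edgeR).

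All 15 transcripts listed as targets of ERK signalling were tested, 4 of which (Dusp6, Spry2, Spry4 and Spred2) are also in the list of inhibitors. In WT hypoxia 6 rose and 4 fell (median 0.05), and in ΔN-VEGF hypoxia 5 rose and 6 fell (median -0.06). Ier3, an early response gene, rose by 4.20 and 3.71 (adjusted p 6.7e-09 and 7.8e-09, edgeR) to 808 and 789.9 CPM. Fos rose by 2.73 and 3.39 (adjusted p 9.3e-05 and 1.1e-05, edgeR). Etv5, an ETS factor named here after its values were seen, fell by 0.91 and 1.43 (adjusted p 6.4e-04 and 1.6e-05, edgeR). Phlda1 had a log2 difference of 0.05 in WT cells (adjusted p 0.83, or 0.26 with an adjusted p of 0.037 when replicate 2 of WT normoxia was omitted) and fell by 1.12 in the ΔN-VEGF line (adjusted p 1.2e-04), and the responses differed by -1.17 (adjusted p 0.02, edgeR). Between the lines in hypoxia 3 of the 15 were higher and 2 lower in ΔN-VEGF cells (median -0.33), where 20.1% of all genes were called, or 3 and 8 (median -0.34, 42.4% of all genes) with replicate 2 of WT normoxia omitted. The higher ones included Egr1 by 1.54 (adjusted p 0.0051) and Fos by 1.40 (adjusted p 0.0094, edgeR), and the lower ones were Phlda1 and Spry4. The summed level of the 15 genes was 1696 CPM in replicate 2 of WT normoxia, against 914 and 862 CPM in replicates 1 and 3 and 2388 to 2590.1 CPM in WT hypoxia. In this sample 12 of the 15 were above both other replicates and 3 were below both, among them Fos (0.627 CPM against 2.15 and 2.14 CPM) and Egr1 (41.1 CPM against 123 and 107 CPM). Without that sample 10 of the 15 rose and 4 fell in WT hypoxia, where 54.0% of all genes were called, and 7 rose and 7 fell in ΔN-VEGF hypoxia (67.1%). Between the lines in normoxia 11 were then higher and 2 lower in ΔN-VEGF cells, where 48.9% of all genes were called, against 0 of the 15 and 4.36% of all genes over all samples.

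Markers of other cell types moved with hypoxia as well. Of the 6 mural markers 5 were tested and 2 rose in each line, and their summed level went from 369 to 1287 CPM in WT normoxia to 2931 to 3385 CPM in WT hypoxia, with Acta2 at 161 to 1014 and at 2692 to 3112 CPM in these groups. Of 7 leukocyte markers 2 were tested and both rose in each line, with Csf1r at 0.845 to 9.03 CPM in WT normoxia and 28.8 to 30.1 CPM in WT hypoxia, while Ptprc stayed at or near 0. Of 7 endothelial markers 2 were tested, of which Cdh5 rose in both lines, to 5.38 to 7.29 CPM in WT and 19.4 to 24.4 CPM in ΔN-VEGF cells. The other, Pecam1, named after its values were seen, was called higher in hypoxia in the ΔN-VEGF line alone. It was at 0.583 to 0.611 CPM there, against 0.213 to 0.368 CPM in ΔN-VEGF normoxia. Of 7 epithelial markers 3 were tested, and their summed level was at most 10.4 CPM in any sample, with Epcam at 0. Of these Krt14 rose in both lines, by 2.14 on the log2 scale in WT (means of 1.96 and 8.64 CPM, adjusted p 5.3e-05) and by 0.64 in the ΔN-VEGF line (adjusted p 0.044, edgeR), and Krt8, named after its values were seen, fell by 2.61 in the ΔN-VEGF line (adjusted p 0.026, edgeR), where it was at most 0.294 CPM. Of the 14 fibroblast markers 12 were tested. In WT hypoxia 4 rose and 2 fell (median -0.13), and in ΔN-VEGF hypoxia 8 rose and 1 fell (median 0.93). Dcn fell by 2.80 and Col3a1 by 2.2 in WT (adjusted p 0.0011 and 0.0054, edgeR), and Thy1, named after its values were seen, fell by 1.15 in the ΔN-VEGF line (adjusted p 0.0087, edgeR). Col3a1 was at 2245, 336 and 2179 CPM in WT normoxia, so that replicate 2 lay below the WT hypoxia samples (341 to 348 CPM). When replicate 2 of WT normoxia was omitted 4 rose and 6 fell in WT (median -0.45), and 8 rose and 1 fell in the ΔN-VEGF line (median 0.92). The summed level of the 14 markers, to which Vim contributed 13689 to 14905 CPM and P4hb 7417 to 7742 CPM in WT hypoxia, was 19677 to 29748 CPM in WT normoxia, 36749 to 39543 CPM in WT hypoxia, 23847 to 26679 CPM in ΔN-VEGF normoxia and 59552 to 62019.9 CPM in ΔN-VEGF hypoxia. Of the 14, Fap (at most 0.0474 CPM) and Lum (at most 0.137 CPM) were at or near 0 throughout, and Postn lay between 0.0519 and 1.56 CPM. The summed level of the 14 markers was highest in the samples in which Fgfr1 was highest, and the part of the marker shifts in the members' values was not tested.

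The genes whose log2 CPM followed each member most closely over the 12 samples were found among 11549 genes by Pearson's r, as a description of samples that share treatments and libraries. Hgf was closest to Ralgds (0.993) and Mex3a (0.990), Pdgfra to Zmym3 (0.990) and Cpt1a (0.989), and Pdgfrb to Ifi35 (0.991) and Fam102a (0.989). Pdgfa was closest to Lgr6 (0.992) and Pdrg1 (0.975), and Pdgfc to Gmds (0.993) and Gpd2 (0.990). Fgf2 was closest to Ifrd1 (0.973) and Me1 (0.971), Fgf7 to Casc4 (0.988) and Morc2a (0.986), and Fgfr1 to Bgn (0.983) and Cux1 (0.973). By Spearman's rho other genes came first for every member, and Mex3a alone remained among the closest pair of its member.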

How the data were processed

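RNA of 12 samples, made into libraries with a TruSeq RNA kit, was sequenced as 80-bp single reads. Per the labels and methods, the authors trimmed reads with Trim Galore and cutadapt 1.10, aligned them with TopHat2 2.1.0 and Bowtie2 2.2.6, and deposited raw read counts per gene from HTSeq 0.6.1; strand counting is not given in the sources used here. The gene positions in the file equal those of GRCm38. Groups came from the labels. Counts were tested with edgeR 4.0.16 in R 4.3.3 (filterByExpr, TMM, 1 mean per group over 12 samples, quasi-likelihood test, Benjamini-Hochberg over 14724 genes), and a call is an adjusted p below 0.05. DESeq2 1.42.0, the authors' tool (version 1.18.1), was an alternative. The code was tested on simulated data. Members and lists were chosen with earlier results of these data known. Of each list, at most the 2 genes with the largest absolute log2 fold change among the calls of a comparison, with a mean of at least 1 CPM, were named; Met, Furin, Etv5, Thy1, Krt8 and the other single markers outside this rule were named after their values were seen; 1 gene that this rule names is not reported here. RPKM used the union of annotated exons, and log2 CPM a prior count of 2. Same-numbered samples of the lines in normoxia deviated together from their group means (r = 0.38, 0.50 and 0.36), which was taken as pairing there. Replicate 2 stood apart in both of these groups and moved both group means. Replicates 1 and 3 then deviate the same way in each line, so their r cannot show pairing by number. In the other comparisons not every pair exceeded 0.1.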

Additional observations from a re-analysis of the deposited data

How the results depend on the processing

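Counts of members called were recomputed under up to 22 alternatives. Of 824 values of single members under these, 38 gained a call, 16 lost one and 1 was called with the opposite sign. Values that were not called also changed sign: between the lines in normoxia Fgf2 went from -0.03 to 0.56 without replicate 2 of WT, and Fgfr1 from 0.27 to -0.10 without replicate 2 of both lines. Requiring a fold of at least 2 gave 3 members in WT hypoxia, 3 in ΔN-VEGF hypoxia and 0 between the lines in hypoxia. Leaving out replicate 2 of both normoxia groups, 8 members were called in WT hypoxia, 4 between the lines in normoxia and 5 for the difference of the responses, where 65.3%, 53.6% and 52.8% of all genes were called. Leaving out each sample in turn gave 5 to 7 calls in WT hypoxia, 5 to 6 in ΔN-VEGF hypoxia, 0 to 5 between the lines in normoxia, 1 to 4 in hypoxia and 0 to 5 for the difference of the responses. The highest counts, 7, 6, 5, 4 and 5, came without replicate 2 of WT normoxia. When replicate 2 of ΔN-VEGF normoxia was left out 1 member, Fgfr1, was called for the difference of the responses. Between the lines in hypoxia 1 call remained, for Fgfr1, without replicate 1 or 3 of WT hypoxia or any ΔN-VEGF hypoxia sample. Pdgfa between the lines in normoxia ranged from -0.26 to 0.34 as samples were left out, and the opposite sign (0.34, adjusted p 0.036, edgeR) came without replicate 2 of WT normoxia. The causes were not tested. The log2 ratio of Pdgfra to Pdgfrb differed by -0.55 to 0.11, -0.08 to 0.58, -0.48 to 0.41 and 0.32 to 0.50 in the 4 comparisons with a sample left out. With a replicate block over 12 samples the counts were 6, 5, 0, 3 and 0 (38.6%, 55.5%, 4.37%, 22% and 3.29% of all genes), and Pdgfa was called in WT hypoxia (0.62, adjusted p 0.029, edgeR). With the block in the samples of each comparison alone they were 4, 6, 0 and 4 (13.3%, 66.2%, 0.00718% and 61.1%). Only the numbers of the normoxia comparison were taken as pairing, and there the block changed no call.

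Depth limits little for the 8 tested members, which had 85 counts or more in every sample, while Pdgfb and Pdgfd could have been missed below 0.103 CPM. With 3 samples a group and a normoxia sample apart, the wide intervals of Pdgfra, Fgf2 and Hgf are set by the spread between samples. Scaling by total counts moved the median of all genes in hypoxia from -0.07 to -0.30 in WT and from -0.01 to -0.41 in ΔN-VEGF cells. Transcript levels say nothing of secreted protein.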
